A study of Equus caballus with 10 samples.

Results

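The genes described here help to set how much inorganic pyrophosphate, free phosphate and calcification inhibitor surrounds a tendon cell, together with the remaining nucleotide pyrophosphatase/phosphodiesterase (ENPP) genes that share their family with ENPP1. They were chosen by name, with earlier results of these data known, as ENPP1 to ENPP6, ANKH, ALPL, PHOSPHO1 and MGP. All 10 were found among the 29196 genes of the deposited table. All 10 also passed the filter on low values, which 17992 genes passed. The RNA came from primary, unmodified tenocytes of the superficial digital flexor tendon of 5 adult horses, grown in 3D collagen gels to day 14. Every culture received the IRAK-4 inhibitor PF-06650833 daily at 100 nM, and from each donor 1 library was made with PF-06650833 alone and 1 with IL-1β plus PF-06650833, where IL-1β was given at 17 ng/ml every 3 to 4 days. Cultures without the inhibitor were not analysed here, so the comparison asks what IL-1β changed while IRAK-4 was inhibited, and a library called one with IL-1β had both agents. The labels name the cells primary tendon cells, and of their markers SCX and MKX were read in all 10 libraries while TNMD, the late tendon marker tenomodulin, was at the value of 0 reads in all of them. SCX and MKX had fewer estimated reads in every library with IL-1β than in any library without it. For the tendon markers COL1A1, COL1A2, DCN, FMOD, TNC and THBS4 the ranges of estimated reads overlapped between the groups.

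Extracellular pyrophosphate blocks the growth of hydroxyapatite crystals. ENPP1 makes it by splitting ATP outside the cell, ANKH is a membrane protein that lets ATP and pyrophosphate leave the cell, and ALPL, the tissue-nonspecific alkaline phosphatase, destroys it and releases phosphate. PHOSPHO1 frees phosphate from phosphocholine inside matrix vesicles, and MGP is a vitamin K-dependent matrix protein that holds back soft-tissue calcification. Inherited loss of ENPP1 or MGP leads to mineral in arteries and other soft tissues, and loss of ALPL to poorly mineralized bone, while mineral inside a tendon is the mark of calcific tendinopathy. The other ENPP proteins act on different substrates, among them ENPP2 or autotaxin, which is secreted and makes the lipid messenger lysophosphatidic acid.

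The values are variance-stabilized log2 expression as deposited. On this scale a gene without reads stands at 3.43, a difference of 1 is close to a 2-fold change for well-read genes, and differences of genes with few reads are compressed. Levels are compared between libraries and never between genes, because no transcript lengths were used. The estimated reads on genes were between 26446799 and 35776576 per library, and an estimate of reads is given wherever a gene had few. A gene was called when limma gave it a Benjamini-Hochberg adjusted p under 0.05 over all tested genes and its log2 fold change was 1 or more in either direction. The main fit had no donor term, and because both libraries of a donor come from the same horse the fit with the donor as a block is given where it changes a call.

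With IL-1β plus PF-06650833, ENPP1 and ANKH, which supply extracellular pyrophosphate, fell, and ALPL, which removes it, was higher in every donor. ENPP1 was 5.90-fold lower and ANKH 5.80-fold lower, while ALPL was 7.25-fold higher, a rise that was called once the donor was in the fit. Of the 10 genes 5 were called, 1 higher (ENPP2) and 4 lower (ENPP1, ANKH, ENPP5 and MGP), where 6.68% of all tested genes were called, 3.11% higher and 3.57% lower. With the donor block 7 were called, since ALPL joined the higher genes and ENPP4 the lower ones, against 8.26% of all tested genes, 4.01% higher and 4.25% lower. The 10 genes had a median log2 fold change of -0.71, where all tested genes had -0.01. In 4 of the 10 genes the groups did not overlap, 1 higher (ENPP2) and 3 lower (ENPP1, ANKH and ENPP5), which held for 12.7% of all tested genes, 6.29% higher and 6.41% lower. The 10 genes were chosen with earlier results of these data known, so these shares describe them and do not test the set. The number called depended on single libraries: it was 2 without donor 1 and also 2 without donor 2, 3 without donor 5, and 3 without the IL-1β library of donor 1. ENPP1 and ANKH were called in all of these fits.

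**Figure D1:**
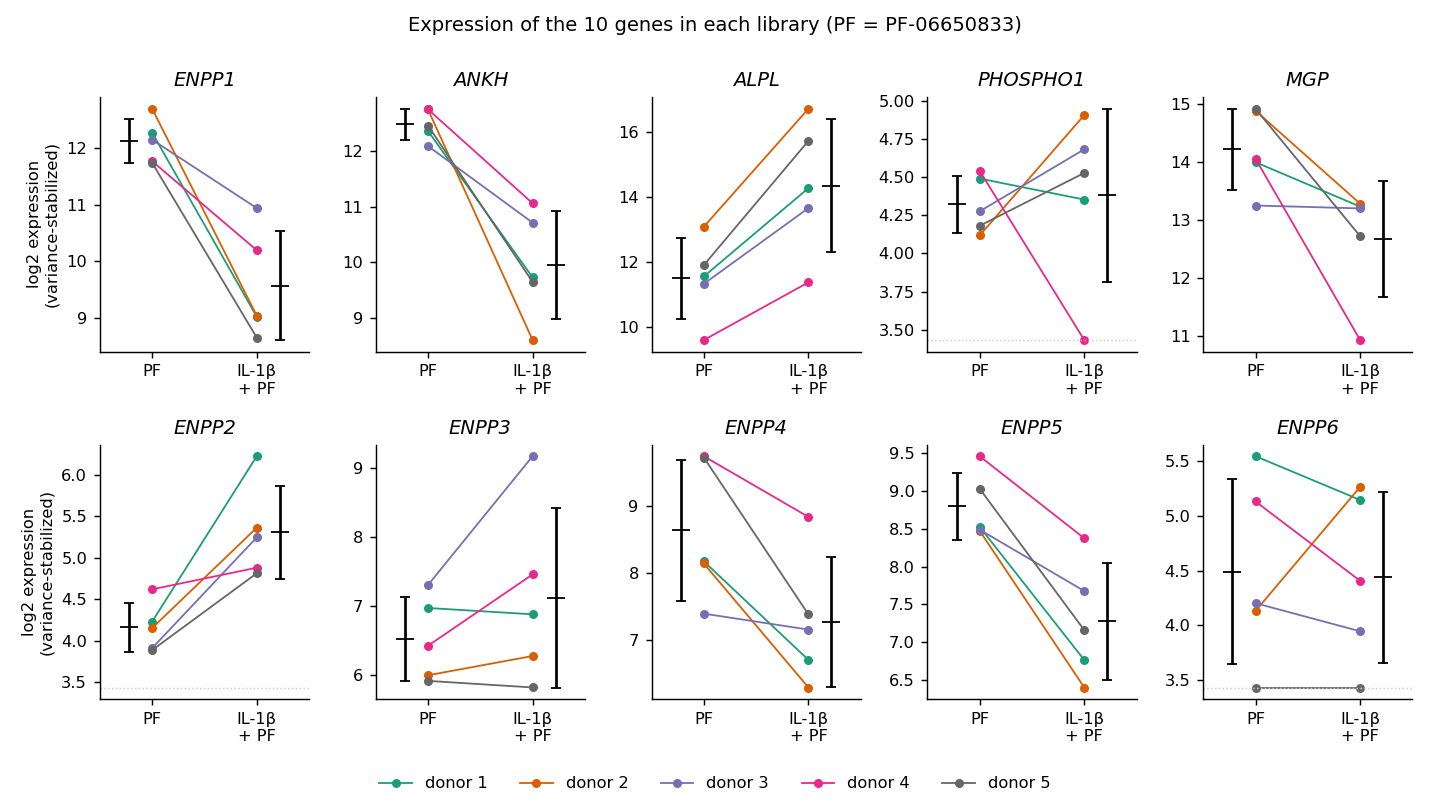
Each panel plots variance-stabilized log2 expression of 1 gene in the 10 libraries, with a line joining the libraries of a donor and black marks for the mean ± SD of each group (n = 5), and a dotted line at the value of 0 reads (3.43) where a gene lies near it. ENPP1, ANKH and ENPP5 were lower and ENPP2 higher in every library with IL-1β plus PF-06650833 than in all those with PF-06650833 alone, and the lines of ALPL run upward side by side.

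ENPP1 is the main enzyme that makes extracellular pyrophosphate. With PF-06650833 alone its log2 expression was 12.27, 12.70, 12.15, 11.77 and 11.74 in donors 1 to 5, and with IL-1β it was 9.02, 9.03, 10.94, 10.19 and 8.65. Every library with IL-1β lay under every library without it, and the spread between donors was wider with IL-1β. The mean went from 12.13 ± 0.40 to 9.57 ± 0.96 (SD, n = 5), with a log2 fold change of -2.56 (adjusted p = 0.00212 in limma, standard error 0.40), or 5.90-fold lower with a 95% confidence interval from 3.21 to 10.8. The log2 differences within a donor were -3.26, -3.66 and -3.09 in donors 1, 2 and 5. They were smaller in donors 3 and 4, at -1.21 and -1.58. ENPP1 kept its call in all 15 fits without 1 library or 1 donor.

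ANKH, through which pyrophosphate leaves the cell, fell by nearly as much. Its log2 expression was 12.36, 12.75, 12.09, 12.75 and 12.46 with PF-06650833 alone and 9.73, 8.60, 10.71, 11.06 and 9.64 with IL-1β. The groups did not overlap, and the 5 libraries without IL-1β lay closer together than those with it. The mean went from 12.48 ± 0.28 to 9.95 ± 0.97 (SD, n = 5), with a log2 fold change of -2.54 (adjusted p = 0.00188 in limma, standard error 0.39). That is 5.80-fold lower, with a 95% confidence interval from 3.21 to 10.5. The largest fall was in donor 2, where ANKH fell by 4.15 on the log2 scale, and the smallest was in donor 3, with 1.38. ANKH too was called in all 15 fits without 1 library or 1 donor. The log2 ratio of ENPP1 to ANKH within a library averaged -0.36 ± 0.46 with PF-06650833 alone and -0.38 ± 0.66 with IL-1β (SD, n = 5).

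ALPL, the phosphatase that breaks pyrophosphate down, went the other way. With PF-06650833 alone its log2 expression was 11.57, 13.10, 11.34, 9.61 and 11.92, and with IL-1β it was 14.29, 16.73, 13.67, 11.38 and 15.74. The groups overlapped, because donor 4 with IL-1β (11.38) stood lower than 3 of the 5 libraries without it, yet all 5 donors rose. The donors held the same order in both groups, from donor 2 at the top through donors 5, 1 and 3 to donor 4 at the bottom. The differences within a donor were 2.72, 3.63, 2.33, 1.78 and 3.83, and their SD of 0.87 was smaller than the SD between donors, which was 1.26 with PF-06650833 alone and 2.05 with IL-1β.

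Without a donor term the log2 fold change of ALPL was 2.86 (standard error 0.91, 95% confidence interval 0.85 to 4.87) and missed the threshold (adjusted p = 0.0573 in limma). With the replicate block, in which the donor is a term of the fit, the same fold change had a standard error of 0.29, a 95% confidence interval from 2.19 to 3.53 and an adjusted p of 0.000864 from limma. The call also appeared without the block once the IL-1β library of donor 4 was left out (log2 fold change 3.60, adjusted p = 0.00806) or donor 4 as a whole (3.13, adjusted p = 0.0136). With the block ALPL was called whichever donor was left out, with log2 fold changes from 2.62 to 3.13.

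**Figure D2:**
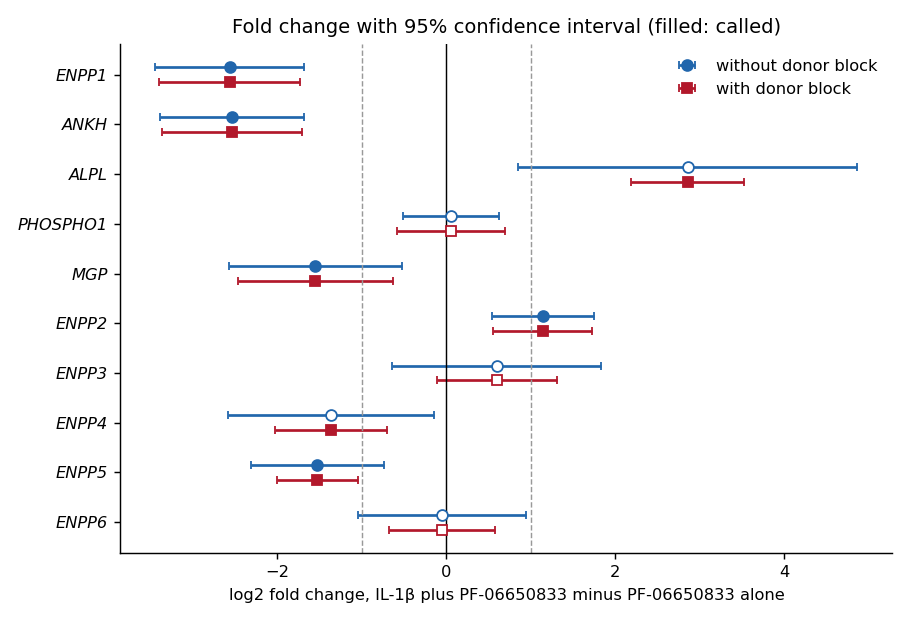
The horizontal axis gives the log2 fold change of each gene, IL-1β plus PF-06650833 minus PF-06650833 alone, with its 95% confidence interval from limma without (blue circles) and with (red squares) the donor as a block, filled where the gene was called, and dashed lines at 1 and -1. The interval of ALPL narrows from 0.85 to 4.87 without the block to 2.19 to 3.53 with it, while those of ENPP1 and ANKH hardly move.

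Since ENPP1 fell and ALPL rose in each donor, their log2 ratio within a library moved further than either gene. The log2 ratio of ALPL to ENPP1 was between -2.16 and 0.40 in the libraries with PF-06650833 alone and between 1.19 and 7.70 in those with IL-1β, so the ranges did not overlap. The 3 donors whose ratio ended highest were donors 2, 5 and 1, at 7.70, 7.09 and 5.27, and donors 3 and 4 ended at 2.73 and 1.19. The donors stood in the same order with PF-06650833 alone, at 0.40, 0.17, -0.71, -0.81 and -2.16 in donors 2, 5, 1, 3 and 4. These ratios depend on the lengths of both transcripts and are compared between libraries only.

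**Figure D3:**
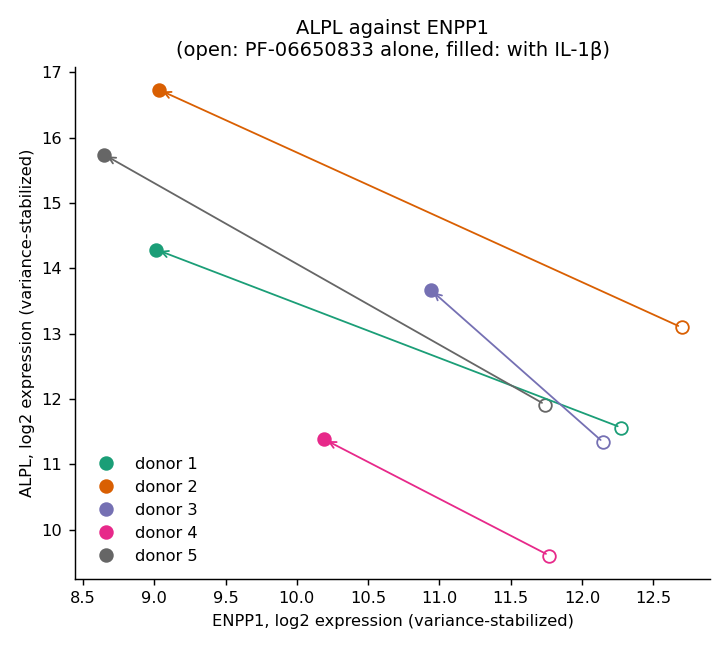
Variance-stabilized log2 expression of ALPL (vertical axis) is plotted against that of ENPP1 (horizontal axis), with an arrow for each donor from PF-06650833 alone (open circle) to IL-1β plus PF-06650833 (filled circle). All 5 arrows point up and to the left, and those of donors 3 and 4 are the shortest.

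MGP, the calcification inhibitor laid down in the matrix, was lower with IL-1β. Its log2 expression was 14.00, 14.88, 13.25, 14.06 and 14.92 with PF-06650833 alone and 13.23, 13.28, 13.20, 10.94 and 12.72 with IL-1β. The groups overlapped slightly, since donor 3 without IL-1β (13.25) stood under donor 2 with it (13.28), and donor 3 itself fell by 0.050, the least of the 5. The mean went from 14.22 ± 0.70 to 12.68 ± 1.00 (SD, n = 5), with a log2 fold change of -1.55 (adjusted p = 0.0458 in limma, standard error 0.47). The call stood close to the threshold and was lost in 11 of the 15 fits without 1 library or 1 donor, with adjusted p-values up to 0.166 from limma. It was lost without any of donors 1, 2, 4 and 5, without any of their libraries with PF-06650833 alone, and without the IL-1β library of donor 1, 2 or 5. With the replicate block the adjusted p was 0.0278 from limma, and MGP was called in 2 of the 5 block fits without 1 donor, losing its call without donor 1, 2 or 5 (adjusted p up to 0.0826 from limma).

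For PHOSPHO1, which supplies phosphate at the start of mineral formation in bone and cartilage, no difference was detectable at this depth. It had 2 to 6 estimated reads with the inhibitor alone and 0 to 11 with IL-1β. Its log2 expression was 4.32 ± 0.19 and 4.38 ± 0.57 (SD, n = 5), with a log2 fold change of 0.06 (95% confidence interval -0.51 to 0.62, adjusted p = 0.908 in limma).

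ENPP2, or autotaxin, rose from a trace to a low number of reads. The estimated reads were 3, 2, 1, 7 and 1 in donors 1 to 5 with PF-06650833 alone and 44, 20, 17, 8 and 9 with IL-1β. No library with IL-1β had fewer reads than any library without it, but donor 4 moved only from 7 to 8. The corresponding log2 differences within a donor were 2.00, 1.21, 1.34, 0.26 and 0.93. The log2 fold change was 1.15 (adjusted p = 0.0173 in limma, standard error 0.28), and it was 2.52 (adjusted p = 0.0112 in limma) on the scale of log2(normalized count + 1), which compresses low values less. The gene lost its call when the IL-1β library of donor 1 was left out, because the log2 fold change became 0.92, and also without donor 1, 2 or 3 as a whole. In the block fits it lost the call without donor 1 or donor 2.

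Of 12 listed genes that receive, make or break down lysophosphatidic acid, the product of ENPP2, 8 could be tested and 2 were called, both higher, with a median log2 fold change of 0.33. Of all tested genes 6.68% were called, 3.11% higher. LPAR6, a receptor for lysophosphatidic acid, went from 6.05 ± 0.85 to 8.39 ± 1.25 (SD, n = 5), with a log2 fold change of 2.34 (adjusted p = 0.0210 in limma, standard error 0.59). PLPP1, a membrane phosphatase that can remove the phosphate from lysophosphatidic acid outside the cell, had a log2 fold change of 1.46 (adjusted p = 0.0239 in limma, standard error 0.38). Both were higher in 5 of 5 donors, and the count of 2 fell to 0 when the IL-1β library of donor 1, 2 or 5 was left out, and without donor 1 or donor 5. It fell to 1 without donor 2 or without the PF-06650833 alone library of donor 2 or 4. With the replicate block both were called (adjusted p = 0.00223 and 0.00634). The other 6 tested genes were not called, and LPAR3, LPAR4, LIPH and LIPI were under the filter on low values.

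ENPP4 and ENPP5, membrane-bound members of the family, were lower in all 5 donors. In a RefSeq gene table of another horse assembly (TB-T2T) they are direct neighbours, with 0 genes between them. ENPP5, whose substrate is poorly known, was at 8.52, 8.47, 8.49, 9.46 and 9.03 with PF-06650833 alone and at 6.76, 6.40, 7.68, 8.37 and 7.16 with IL-1β. The groups did not overlap, though the gap between the highest library with IL-1β and the lowest without it was small. The log2 fold change was -1.52 (adjusted p = 0.0154 in limma, standard error 0.36), or 2.87-fold lower. ENPP5 lost its call without donor 1, 2 or 5, and kept it in the fits that left out a single library. With the replicate block its adjusted p was 0.00265.

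ENPP4, which cleaves dinucleotides such as diadenosine triphosphate, was at 8.17, 8.14, 7.39, 9.74 and 9.72 with PF-06650833 alone and at 6.70, 6.28, 7.15, 8.83 and 7.38 with IL-1β. The groups overlapped because donors 4 and 5 were higher than the others without IL-1β, and donor 4 stayed the highest with it. The log2 fold change was -1.36 (standard error 0.55) and missed the threshold without a donor term (adjusted p = 0.125 in limma), while with the replicate block the standard error was 0.29 and ENPP4 was called (adjusted p = 0.0140 in limma). It was also called without the block when the IL-1β library of donor 4 was left out (-1.75, adjusted p = 0.0330). With the block it lost the call when donor 1 or donor 2 was left out.

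ENPP3, a nucleotide pyrophosphatase like ENPP1, lies close to it in the same RefSeq table, with 3 genes between them, 1 of them protein-coding. Its values were 6.97, 5.99, 7.30, 6.42 and 5.91 with PF-06650833 alone and 6.87, 6.27, 9.17, 7.45 and 5.81 with IL-1β. Donor 3 was highest in both groups and differed the most between them, by 1.87, while donors 1 and 5 differed by -0.09 and -0.10. The log2 fold change was 0.60 (95% confidence interval -0.64 to 1.84, adjusted p = 0.528 in limma), and with the replicate block the interval was -0.11 to 1.31 (adjusted p = 0.200 in limma). ENPP3 was thus higher in 3 of 5 donors and ENPP1 lower in all 5, and the difference between the changes of these genes was not tested.

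ENPP6, a choline-specific phosphodiesterase, had 0 to 24 estimated reads with the inhibitor alone and 0 to 17 with IL-1β. Donor 5 had 0 reads in both libraries. The log2 fold change was -0.05 (95% confidence interval -1.04 to 0.94, adjusted p = 0.957 in limma), and no difference was detectable at this depth.

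The donors differed in the size of the response. Of the 7 genes called with the donor block, ENPP1, ANKH, ALPL, ENPP4 and ENPP5 changed least in donors 3 and 4. MGP fell by 3.12 in donor 4, the largest fall of MGP, and ENPP2 changed least in donors 4 and 5. The median absolute difference over these 7 genes was 2.00, 2.07, 1.21, 1.58 and 2.34 in donors 1 to 5. Over the 1202 genes called without the donor block it was 1.61, 1.78, 1.10, 1.50 and 1.96, so that the donors had the same order, with donor 5 first and donor 3 last, in both sets.

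**Figure D4:**
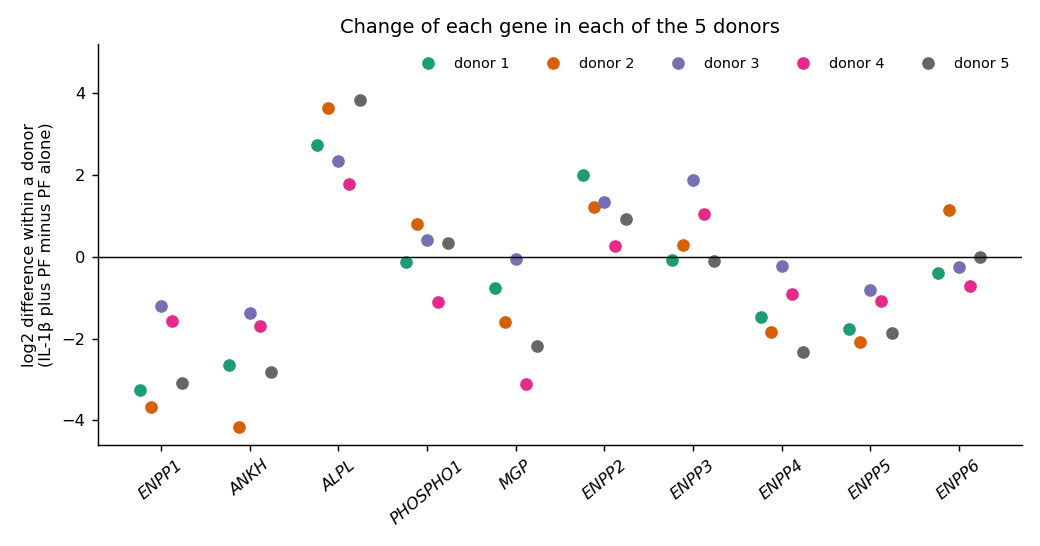
The vertical axis gives the difference in variance-stabilized log2 expression within a donor, IL-1β plus PF-06650833 minus PF-06650833 alone, with 1 point for each of the 5 donors and each of the 10 genes. The points of ENPP1, ANKH, ENPP4 and ENPP5 lie under 0 and those of ALPL and ENPP2 above it in every donor, while PHOSPHO1, ENPP3 and ENPP6 lie on both sides.

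Among other genes that handle phosphate and pyrophosphate, 3 of 16 tested were called, 1 higher and 2 lower, with a median log2 fold change of 0.13 and against 6.68% of all tested genes. SLC20A1 and SLC20A2 both carry phosphate into the cell with sodium, and they moved in opposite directions. SLC20A1 went from 11.96 ± 0.31 to 13.30 ± 0.66 (SD, n = 5), with a log2 fold change of 1.33 (adjusted p = 0.00990 in limma), and was higher in 5 of 5 donors. SLC20A2 went from 11.42 ± 0.71 to 9.84 ± 0.57 (SD, n = 5), with a log2 fold change of -1.58 (adjusted p = 0.0124 in limma), with donor 3 nearly level at -0.03. SLC29A1, a nucleoside carrier that takes up adenosine, had a log2 fold change of -1.69 (adjusted p = 0.00245 in limma) and was lower in 5 of 5 donors. The other 13 genes were not called, and the count was 1 without donor 1 or without donor 5.

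Of the genes of mineral matrix, matrix vesicles and vitamin K, 13 of 19 listed could be tested and 2 were called, both lower, with a median of -0.14, where 6.68% of all tested genes were called, 3.57% lower. These were PHEX, an endopeptidase of bone cells (log2 fold change -1.22, adjusted p = 0.0212 in limma), and GAS6, a vitamin K-dependent ligand (-1.04, adjusted p = 0.0145 in limma), each lower in 5 of 5 donors. This count fell to 0 without donor 2 or donor 5 and without the IL-1β library of donor 2. It fell to 1 without donor 1, without the PF-06650833 alone library of donor 2 or 4, and without the IL-1β library of donor 1 or 5. With the block it was 2, and 1 without donor 1, 2 or 5. Of the osteogenic and chondrogenic regulators, 19 of 20 could be tested and 4 were called, all lower, with a median of -0.34, against the same 6.68% and 3.57% of all tested genes. SOX9, the master regulator of cartilage, went from 10.09 ± 0.24 to 8.60 ± 0.38 (SD, n = 5), and the log2 fold change was -1.49 (adjusted p = 0.000752 in limma). The homeobox genes DLX5 (-1.64, adjusted p = 0.00534 in limma) and MSX2 (-1.27, adjusted p = 0.0141 in limma) and the BMP antagonist GREM1 (-2.14, adjusted p = 0.00987 in limma) were also lower in 5 of 5 donors. RUNX2, the main osteoblast regulator, is named after its values were seen, and its log2 fold change of -0.62 did not pass (adjusted p = 0.234 in limma).

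Some markers of tendon cells and of other cells that a tendon digest could hold moved as well. In bulk RNA fewer cells of a type and less RNA per cell cannot be told apart. The counts of called markers stand beside 6.68% of all tested genes called, 3.11% higher and 3.57% lower. With the donor block these shares were 8.26%, 4.01% and 4.25%. Of 6 osteoblast markers, BGLAP was not analysed here, IBSP, DMP1 and MEPE were at the value of 0 reads in all 10 libraries, SP7 had 4 to 26 estimated reads, and PHEX fell. The summed normalized counts of the osteoblast list were 146 to 339 with the inhibitor alone and 42.0 to 142 with IL-1β. These sums were mostly PHEX, which had 96 to 286 and 26 to 87 estimated reads, and like PHEX they were lower in 5 of 5 donors. SP7 had a log2 fold change of -0.04 (adjusted p = 0.938 in limma). Of 8 tested tendon markers 3 were lower, 5 with the donor block, and their sum was 841233 to 1415020 with the inhibitor alone and 237588 to 987211 with IL-1β. COL1A1 and COL1A2 made up most of the sum with the inhibitor alone. SCX had 895 to 4263 estimated reads with the inhibitor alone and 86 to 274 with IL-1β, and MKX 1486 to 5858 and 147 to 1013. DCN had 21607 to 121208 and 30066 to 142217, and THBS4 10 to 381 and 3 to 391. FMOD had 4895 to 33550 and 972 to 15996, and TNC 11667 to 33021 and 2240 to 12742. Chondrocyte markers had 1 of 3 tested lower, with sums of 3642 to 11918 and 37.3 to 216, and COL9A1 was at 0 reads throughout. ACAN made up most of the sums with the inhibitor alone, with 3232 to 10967 estimated reads there and 13 to 168 with IL-1β. MATN3 had 4 to 11 and 6 to 20, and COL2A1, COL10A1 and COL11A2 had under 10 in all libraries. Endothelial markers had 1 of 5 lower, with sums of 232 to 706 and 44.8 to 106. ERG made up most of the sums with the inhibitor alone, with 155 to 636 estimated reads there and 33 to 59 with IL-1β. PECAM1 had 0 to 2 and 0 to 16, and CDH5, TEK and KDR had under 10 in all libraries. Smooth muscle and pericyte markers had 3 of 6 lower, with sums of 13691 to 65010 and 16035 to 32032. MYH11 and CNN1 made up most of these sums. MYH11 had 837 to 30991 and 3004 to 8498 estimated reads, and CNN1 7583 to 26886 and 9035 to 13318. CSPG4 had 1225 to 2696 and 285 to 865, and DES 111 to 1024 and 13 to 131. RGS5 had 37 to 328 and 20 to 39, and NOTCH3 146 to 254 and 51 to 195. Leukocyte markers had 1 of 3 higher, with sums of 61.3 to 1766 and 171 to 1943, while CD3E was at 0 reads throughout. CD68 had 50 to 83 and 147 to 651 estimated reads and CD14 0 to 1481 and 0 to 1358. PTPRC and CSF1R had under 10 in all libraries. Adipocyte markers had 1 of 3 higher, 2 with the donor block, with sums of 20.3 to 248 and 364 to 3556, and LEP was at 0 reads throughout. ADIPOQ had 16 to 119 and 248 to 1986 estimated reads and LPL 0 to 61 and 2 to 1567. PLIN1 and CIDEC had under 10 in all libraries. The part of these markers in the changes of the 10 genes was not tested.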

How the data were processed

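RNA-seq of 10 libraries from 5 donors was used, with 5 libraries in each of 2 groups taken from the treatment labels. The authors checked reads with FastQC (version 0.11.9), assigned them to the EquCab3.0 transcriptome with Salmon (version 1.8, with GC-bias correction), imported them with tximport and used DESeq2 (version 1.36). They deposited log2 values of each gene, normalized between libraries. The variance stabilization was recognised from the lowest value of 3.43 shared by all columns. All 10 columns were used.

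A gene was tested if at least 5 libraries exceeded the lowest value, using limma (version 3.58.1, R 4.3.3) and its mean-variance trend, both without and with the replicate block. Replicate numbers stand for the horse in the titles, and deviations from the group means correlated within each donor (0.367 to 0.506 over 5 pairs). Normalized counts came from inverting the transformation. Dividing them by the value of 1 read, found from the spacing of low values, gave estimated reads, which are approximate: 65.0% to 83.6% of low values came out whole to within 0.15 of a read, where an even spread gives 30.0%. Simulated libraries without a donor effect, in which only well-read genes were changed, were used to check the fit without the block. The fit with the block and changes of genes with few reads were not checked in this way.

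The members and gene lists were chosen with earlier results of these data known. All 10 members are named, and of each pathway list the genes called with or without the block, at most 6. Alternatives changed the scale, filter, normalization, variance model, threshold, donor term and libraries. The fits with the block that left out a donor were added after the data were seen.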

Additional observations from a re-analysis of the deposited data

Results flagged for a closer look

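In the library of IL-1β plus PF-06650833 from donor 4, MGP stood far from the other libraries of its group, at 10.94 against 12.72 to 13.28 in the other 4, and rested on about 1363 estimated reads. Without this library the log2 fold change of MGP was -1.11 (adjusted p = 0.0356 from limma), and MGP was still called. It was the only such library in 42 groups of 5 libraries, the 10 members and 11 named pathway genes in both treatments, where chance gives about 2.1.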

How the results depend on the processing

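Over the 15 fits without the block and without 1 library or 1 donor, the count of called members ranged from 2 to 7 (5 with all libraries), the count over the 4 pathway lists from 4 to 12 (11 with all libraries) and the count of all genes from 747 to 1410 (1202 with all libraries). With the replicate block these counts were 7, 11 and 1486, and leaving out a donor from it gave 4 to 7, 10 to 13 and 1174 to 1661. At an adjusted p below 0.01 there were 2 called members, 5 pathway genes and 719 genes in all. Without a minimum fold change 2782 genes were called, and 1809 on log2(normalized count + 1) values with the replicate block. MGP lost its call with all genes that are not constant (adjusted p = 0.0507), without the mean-variance trend (0.0592) and with a robust one (0.0580), all from limma. ENPP6 (-0.34 to 0.21) and PHOSPHO1 (-0.12 to 0.35) changed sign when libraries were left out, and PHOSPHO1 also on log2(normalized count + 0.5) values (-0.0047). With the replicate block ENPP6 was at 0.038, 0.0023 and 0.12 without donors 1, 3 and 4, and PHOSPHO1 at -0.12, -0.028 and -0.013 without donors 2, 3 and 5. The other 8 members kept their direction in all fits run. The number of members without overlap between groups was 4, also on log2(normalized count + 1) values, and 5 after quantile normalization (1 higher, 4 lower). Beyond ALPL and ENPP4, the replicate block changed no call of a member or a named pathway gene. Among the marker lists, it raised the count of lower tendon markers from 3 to 5. The count of higher adipocyte markers rose from 1 to 2. The causes of these changes were not tested.

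Few reads limit ENPP2, ENPP6 and PHOSPHO1, and estimated reads cover counting error only. Among the named pathway genes, LPAR6 had 8 estimated reads in its lowest library.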
